A study of Danio rerio with 12 samples.

Results

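Integrins are cell-surface receptors built from an alpha and a beta chain, which tie the cytoskeleton to the matrix or to counter-receptors on other cells. The alpha chain largely sets the ligand, so the family is divided into receptors of collagen, of laminin, of the RGD motif found in fibronectin and vitronectin, and of leukocytes. In blood-forming tissue integrins are known for holding blood stem cells and progenitors against stroma and vessel walls, and the beta1 chain pairs with many alpha chains. Members were all genes whose symbol in the zebrafish gene name table begins with itga or itgb plus a subunit number or letter, with integrin-binding proteins left out. This gave 34 of the 32047 gene identifiers: 7 collagen receptor genes, 6 laminin receptor genes, 9 RGD receptor genes, 6 leukocyte receptor genes, 2 genes for the alpha4 and alpha9 chains, and 4 copies of ITGB1, the shared beta1 chain. Classes follow the human subunit of the same symbol, and the pairing of zebrafish chains was not measured.

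Messenger RNA was profiled by Quartz-seq, which amplifies cDNA from small samples, in 12 libraries of cells from the kidney, the blood-forming organ of adult fish. All 6 groups (n = 2 each) are labelled adult and wild type. The niche set held ZKS cells, pericytes (pdgfrb in their titles) and sinusoids (high Ac-LDL, acetylated low-density lipoprotein, in theirs), and the DP set held gata2a+ runx1+ cells. DP cells were taken uncultured, after co-culture with ZKS cells, or after the same co-culture with IWR-1-endo, an inhibitor of Wnt signalling, and Thpo, thrombopoietin. ZKS is also the name of a stromal line derived from zebrafish kidney, and the labels do not say whether the sorted ZKS cells had been in culture. No label ties replicates to separate animals or cultures, so the spread behind each p-value may be technical.

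The niche libraries held 6984492 to 16242092 reads, and 15545 to 20626 genes were above 0 CPM (reads scaled to a common library total) in them. In the DP libraries the depth is unknown, 7329 to 9712 genes were above 0, and 7 to 13 of 40 housekeeping genes were listed at 0, against 4 or 5 in the niche libraries. Log2 values of replicates correlated across genes, which are not independent replicates, at 0.983 in the ZKS, 0.903 in the pericyte and 0.901 in the sinusoid group, but at only 0.582, 0.481 and 0.438 in the uncultured, co-cultured and treated DP cells. The labels were set against marker genes. The 12 pericyte and smooth muscle markers summed to 2043 to 2751 CPM in pericytes. They summed to 157 to 194 CPM in ZKS cells and 583 to 979 CPM in sinusoids. Of these, PDGFRB was at 125.46 and 123.85 CPM in pericytes, 30.99 and 31.58 CPM in ZKS cells and 1.2 and 3.14 CPM in sinusoids. Between pericytes and sinusoids rgs5b overlapped, at 264.47 and 426.23 CPM and at 275.42 and 568.03 CPM. The TAGLN copy ENSDARG00000033466 overlapped too, at 156.86 and 316.84 CPM and at 202.88 and 372.98 CPM. The 12 endothelial markers summed to 14729 to 15464 CPM in the sinusoid libraries against 109 to 147 CPM in the pericyte libraries. The 12 stromal markers summed to 1510 to 1701 CPM in the ZKS libraries against 19722 to 20062 CPM in the pericyte libraries. The stromal sum was 25243 to 39697 CPM in the sinusoid libraries, where CXCL12 (ENSDARG00000037116) alone was at 25164 and 39651 CPM. Of these stromal genes, the PRRX1 copy ENSDARG00000033971 was at 1077 and 943 CPM in ZKS cells and at 98.05 and 68.29 CPM in pericytes. The PRRX1 copy ENSDARG00000042027 ran the other way, at 0.65 and 0.2 CPM in ZKS cells and at 19.41 and 22.34 CPM in pericytes. The COL1A1 copy ENSDARG00000035809 was at 14.04 and 13.66 CPM in ZKS cells and at 8486 and 7778 CPM in pericytes. GATA2 (ENSDARG00000059327) was above 0 in all 6 DP libraries, at 9.1 to 319.8 CPM. RUNX1 was at 6.3 and 6.1 CPM in uncultured DP cells and at 0.1, 0, 0 and 0 CPM in the 4 co-cultured libraries. Neither gene was particular to the DP set. GATA2 was at 140.44 and 146.9 CPM in pericytes and at 50.33 and 45.99 CPM in sinusoids, and RUNX1 at 6.85 and 3.58 CPM in pericytes. The related gene gata2b was at 20.7 to 431.9 CPM in the DP libraries and at most 3.28 CPM in the niche libraries. The pericyte and sinusoid libraries also held leukocyte markers: 10 such genes summed to 4037 to 4654 CPM in pericytes and 832 to 1482 CPM in sinusoids, against 18.5 to 28.3 CPM in ZKS cells. Most of the pericyte sum came from the antigen-presentation gene cd74a, with 2432 and 3251 CPM there and 172 and 214 CPM in sinusoids. The gene cd74b was higher in pericytes too. The pan-leukocyte gene ptprc ran the other way, with 58.66 and 66.86 CPM in pericytes but 236.83 and 118.4 CPM in sinusoids. So did the sum of 5 neutrophil genes, at 192 to 371 CPM against 706 to 1274 CPM. The sum of 10 genes therefore does not rank pericytes and sinusoids by leukocyte RNA. In these bulk samples fewer cells of a type and less RNA per cell cannot be told apart.

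The niche libraries contained RNA of most integrin genes, and pericyte replicate 2 contained the most. Members above 0 numbered 19 and 19 in the ZKS libraries, 27 and 29 in the pericyte libraries, and 27 and 22 in the sinusoid libraries. All genes above 0 numbered 15744 and 15545, 18890 and 18122, and 20626 and 16474 in the same libraries. Of the 34 members, pericytes had the highest niche mean for 20, ZKS cells for 6 and sinusoids for 5. The remaining 3, the collagen receptor copies itga2.1 and itga2.3 and the leukocyte beta chain itgb7, were at 0 in all 12 libraries. The group with the highest mean was not counted over all genes, so these counts are no result about the members. Some rest on few reads, such as itga6b, with 2 reads (0.29 CPM) in pericyte replicate 2 alone. In DP libraries 5 to 10 members were above 0, and 17 members were listed at 0 in all 6.

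**Figure D1:**
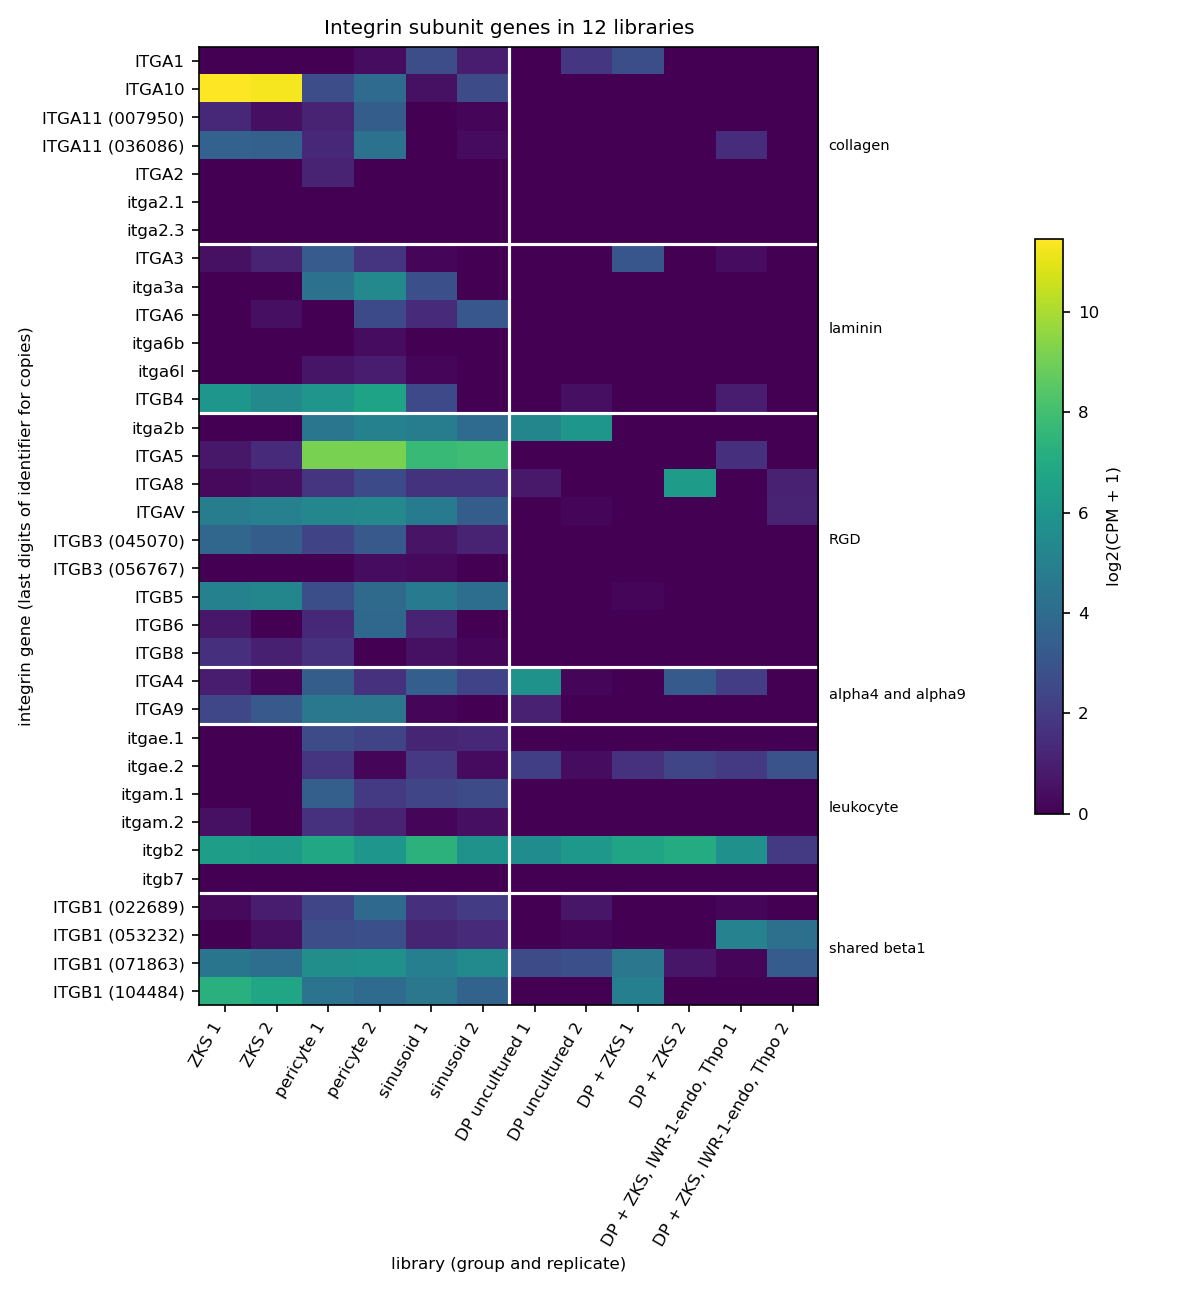
Each row is 1 of the 34 integrin genes, grouped by receptor class and labelled with the last digits of the identifier where copies share a symbol, each column is 1 of the 12 libraries, and the colour gives log2(CPM + 1) of the deposited values. ITGA10 was bright in the ZKS libraries, ITGA5 in the pericyte and sinusoid libraries, and itgb2 was above 0 in all 12 libraries.

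Differences between groups were tested with limma on log2(CPM + 1) after TMM scaling, a scale on which the change of low genes is understated. A gene was called at a Benjamini-Hochberg adjusted p under 0.05 over all genes tested, and 26 of the 34 members had at least 1 CPM in at least 2 niche libraries and so could be tested. In ZKS cells against pericytes 14 of the 26 were called, 2 higher and 12 lower in ZKS cells (3 and 10 with CPM as deposited). Among all 15916 genes 37.2% were called, 15.2% higher and 22% lower. The median log2 change was -1.65 over the members tested and -0.15 over all genes. Of the 26 members, 12 were under 1 CPM in both ZKS libraries and entered the test through other groups. Such members could hardly be called higher in ZKS cells. Genes of this kind were not counted over all genes, so the shares called in each direction are no result about the members.

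Against sinusoids, 10 of the 26 members were called, 6 higher and 4 lower in ZKS cells. The balance was 5 higher and 7 lower with DESeq2, and 6 and 7 with the 4 libraries alone. In these settings 36.1% and 44.2% of all genes were called. Here 16 of the 26 members were under 1 CPM in every library of 1 of the groups, and 6 were in the comparison of pericytes with sinusoids. Such genes were not counted over all genes, so the shares called in each direction are no result about the members there either. Background was 31.6% called, 13.7% higher and 17.9% lower, and the median log2 change was -0.42 over members and -0.12 over all genes. In pericytes against sinusoids 7 of 26 were called, and all 7 were higher in pericytes. The background there was 25.4% called, 14.4% higher and 10.9% lower, so the total share was near the background. Of the calls among all genes 56.9% were higher in pericytes, so the background leaned the same way, less fully than the 7 members. Medians were 1.34 over members and -0.06 over all genes. The 3 comparisons share libraries and are not independent of each other. All members called had groups that did not overlap, but so did members not called, among them ITGB5 in each of the 3 comparisons. The share of genes without overlap was not counted over all genes, so it is no result about the members.

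With so few libraries, single ones decided many of these calls. Without ZKS replicate 1 the count against pericytes fell to 5 and without ZKS replicate 2 to 4, while the share called over all genes fell to 12.6% and 11.9%. Every one of those was among the 14, namely ITGA10, ITGA5, itga2b and the ITGB1 copy ENSDARG00000104484, plus itga3a in the fit without replicate 1. Against sinusoids the count was 5 without either ZKS replicate, with 12.2% and 11.6% of all genes called. Between pericytes and sinusoids it was 4 without pericyte replicate 2, 4 without sinusoid replicate 1 and 4 without sinusoid replicate 2, with 13.5%, 25.7% and 16.5% of all genes called. Across all genes the TMM and deposited scales differed in direction too, with 40.8% of calls higher in ZKS cells than in pericytes after TMM scaling and 51.2% with CPM as deposited.

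**Figure D2:**
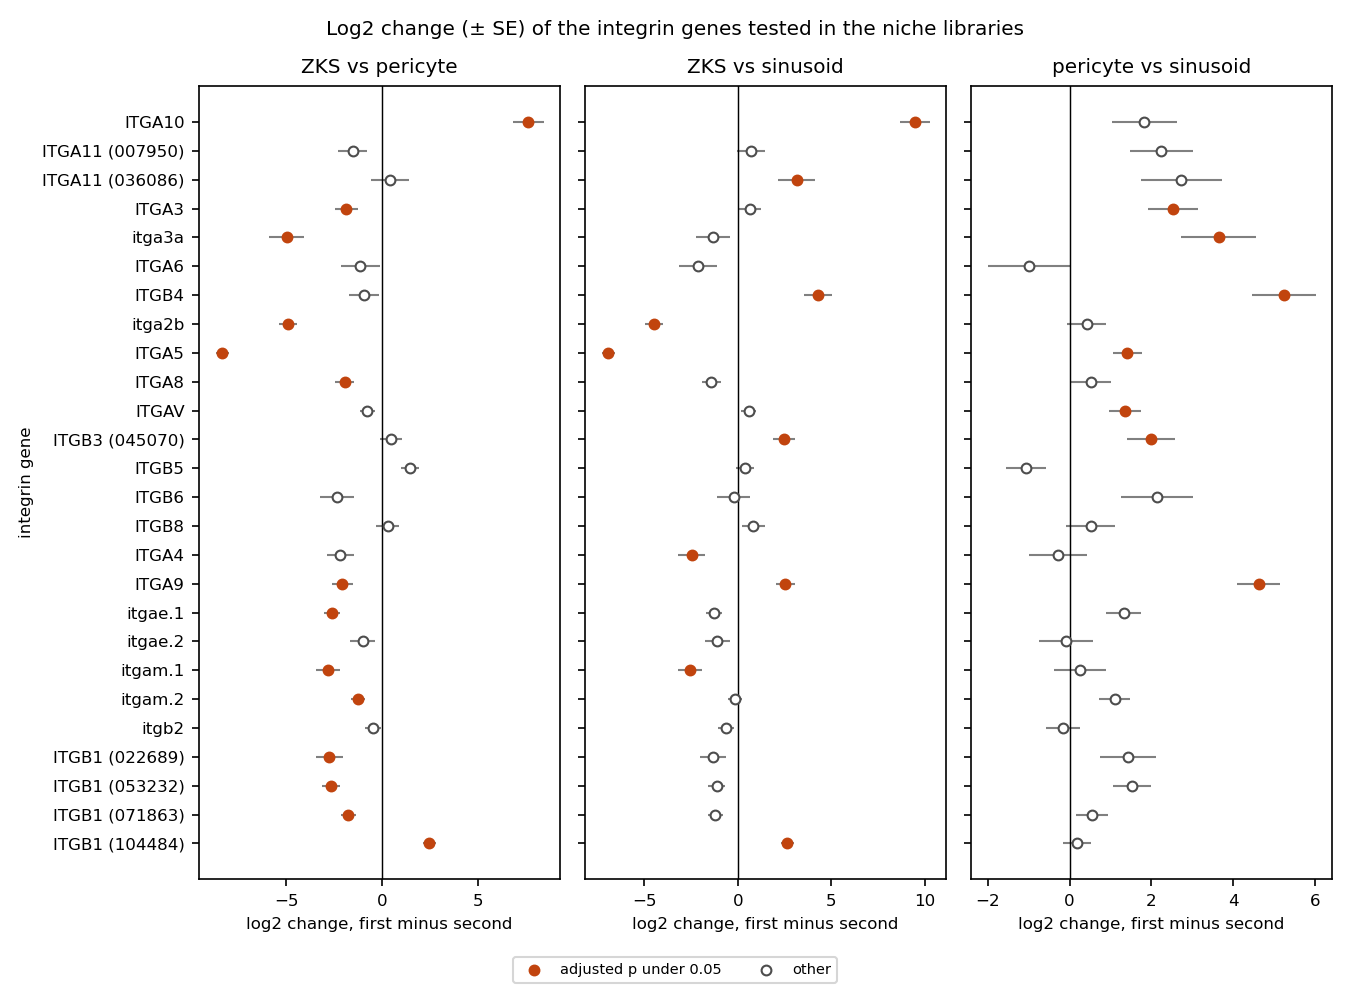
Points give the log2 change (first group minus second, with limma's SE as a bar) of the 26 tested integrin genes in the 3 niche comparisons, on a separate horizontal scale in each panel, and filled points passed an adjusted p of 0.05. Most filled points lie below 0 in ZKS cells against pericytes (12 of 14), and all 7 filled points lie above 0 in pericytes against sinusoids.

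Among collagen receptors the alpha10 chain gene set ZKS cells apart. ITGA10 (ENSDARG00000002507), whose product with beta1 is a collagen receptor known from mammalian cartilage, was at 2821 and 2499.7 CPM in the ZKS libraries. It was at 5.57 and 15.32 CPM in the pericyte libraries and at 0.45 and 5.11 CPM in the sinusoid libraries. Both ZKS values lay far above all other niche values, and the gene was listed at 0 in all 6 DP libraries, including those co-cultured with ZKS cells. The log2 change was 7.65 ± 0.79 (SE) against pericytes (limma adjusted p = 0.000934) and 9.47 ± 0.79 against sinusoids (limma adjusted p = 0.000386), and both calls held in all 14 alternative settings.

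The alpha11 chain, a receptor of fibrillar collagen in mammalian mesenchymal cells, has 2 copies under the symbol ITGA11. The copy ENSDARG00000036086 was at 11.23 and 10.32 CPM in ZKS cells, at 1.43 and 19.19 CPM in pericytes, and at 0 and 0.25 CPM in sinusoids. The ZKS values were even and the pericyte values lay on either side of them. It was higher in ZKS cells than in sinusoids by 3.16 ± 0.98 on the log2 scale (limma adjusted p = 0.0493), a call that held in 7 of 14 alternatives and was lost on leaving out any of the 4 libraries compared (adjusted p = 0.12 to 0.181). The copy ENSDARG00000007950 was at 1.51 and 0.4 CPM in ZKS cells, at 1.14 and 9.31 CPM in pericytes and at 0 and 0.12 CPM in sinusoids and was not called in any niche comparison. ITGA1, the alpha1 chain, was at 5.46 and 0.86 CPM in sinusoids, at 0 and 0.29 CPM in pericytes and 0 in both ZKS libraries, and was too low to be tested. ITGA2 was above 0 in 1 library, at 1.14 CPM in pericyte replicate 1.

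Of the 4 laminin receptor genes tested, 2 were called lower in ZKS cells than in pericytes and 3 higher in pericytes than in sinusoids. Of all genes 22% were lower in the first comparison and 14.4% higher in the second. With 4 genes these counts are no result about the class. ITGB4 (ENSDARG00000028507), the beta4 chain that joins alpha6 in the hemidesmosomes of epithelia, was at 61.52 and 99.65 CPM in pericytes, at 64.25 and 41.7 CPM in ZKS cells, and at 4.86 and 0 CPM in sinusoids. Pericyte and ZKS values overlapped, and both groups lay above the sinusoids. On the log2 scale ITGB4 exceeded the sinusoid level by 5.24 ± 0.77 in pericytes (limma adjusted p = 0.00471) and by 4.29 ± 0.77 in ZKS cells (limma adjusted p = 0.00708). With edgeR's quasi-likelihood test on recovered reads the adjusted p was 0.0557 and 0.0584, and with DESeq2 it was 0.0347 and 0.0849. Between ZKS cells and pericytes the difference was -0.95 ± 0.77 (limma adjusted p = 0.373).

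The alpha3 chain of laminin receptors is encoded by itga3a and by a gene listed as ITGA3. The gene itga3a (ENSDARG00000037917) was at 18.41 and 41.23 CPM in pericytes, at 5.98 and 0 CPM in sinusoids and 0 in both ZKS libraries. It was at least 92.1-fold lower in ZKS cells than in pericytes, taking 3 reads per library as the floor (log2 change -4.98 ± 0.93, limma adjusted p = 0.00751, or 0.0503 without ZKS replicate 2), and at least 56.8-fold from pericyte replicate 1 alone. Pericytes exceeded sinusoids by 3.64 ± 0.93 (limma adjusted p = 0.0302), and that call held in 7 of 14 alternatives. It was lost with edgeR (adjusted p = 0.23) and DESeq2 (adjusted p = 0.531), without pericyte replicate 1 (adjusted p = 0.0649), without pericyte replicate 2 (adjusted p = 0.143) and without sinusoid replicate 2 (adjusted p = 0.0782). The sinusoid libraries also differed from each other in markers of renal tubule, another kidney cell type. The tubule cadherin gene CDH17 was at 365.76 and 0.12 CPM in sinusoid replicates 1 and 2, at 70.65 and 141.74 CPM in pericytes and at 2.16 and 1.21 CPM in ZKS cells. The whole list of 17 tubule genes summed to 2228 to 2343 CPM in ZKS cells, 3301 to 4026 CPM in the pericyte libraries and 2750 to 4236 CPM in the sinusoid libraries. Both itga3a and ITGB4 were above 0 in sinusoid replicate 1 and at 0 in replicate 2, and the part of tubule cells in their values was not tested.

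ITGA3 (ENSDARG00000012824) was lower throughout, at 8.85 and 2.29 CPM in pericytes, at 0.43 and 1.21 CPM in ZKS cells and at 0.15 and 0 CPM in sinusoids. The pericyte values were the highest of the niche set. Pericytes exceeded sinusoids by 2.53 ± 0.60 (limma adjusted p = 0.0242; held in 5 of 13 alternatives, at 0.0617 without pericyte replicate 1 and 0.0638 and 0.0979 without sinusoid replicates 1 and 2), and ZKS cells lay below pericytes by -1.88 ± 0.60 (limma adjusted p = 0.0482; held in 1 of 13 alternatives, at 0.271 and 0.147 without ZKS replicates 1 and 2 and 0.135 without pericyte replicate 1). ITGA6, the alpha6 partner of beta4 in mammals, was at 1.65 and 7.57 CPM in sinusoids, at 0 and 5.01 CPM in pericytes and at 0 and 0.4 CPM in ZKS cells, and was not called in any comparison. The copies itga6b and itga6l were at most 0.86 CPM in any library and were not tested.

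Among RGD receptors the alpha5 chain of the fibronectin receptor showed the clearest pattern. ITGA5 (ENSDARG00000006353) was at 575.05 and 567.4 CPM in pericytes, at 212.83 and 237.35 CPM in sinusoids and at 0.65 and 1.62 CPM in ZKS cells. The 3 groups were fully separated. The log2 change of ZKS cells was -8.35 ± 0.35 against pericytes (limma adjusted p = 6.61e-05) and -6.94 ± 0.35 against sinusoids (limma adjusted p = 7.93e-05), and both calls held in all 14 alternatives. Pericytes exceeded sinusoids by 1.41 ± 0.35 (limma adjusted p = 0.0279), a call held in 8 of 14 alternatives and lost without pericyte replicate 1 (adjusted p = 0.0908), pericyte replicate 2 (adjusted p = 0.11) or sinusoid replicate 1 (adjusted p = 0.0709).

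The gene itga2b (ENSDARG00000018687) encodes the alphaIIb chain of the fibrinogen receptor, also called CD41, which marks thrombocytes and, at lower levels, blood stem and progenitor cells in zebrafish. It was at 21.98 and 31.64 CPM in pericytes, at 28.19 and 14.9 CPM in sinusoids and 0 in both ZKS libraries. Pericyte and sinusoid values overlapped, and neither overlapped with ZKS. It was at least 82.8-fold lower in ZKS cells than in pericytes (log2 change -4.91 ± 0.47, limma adjusted p = 0.000743). It was at least 66.5-fold lower there than in sinusoids (-4.50 ± 0.47, limma adjusted p = 0.000907). From the lower replicate alone the bounds were 67.9-fold for pericytes and 46-fold for sinusoids. The gene itga2b kept both calls in all 14 alternatives. Thrombocyte genes moved with it: gp9 was at 1.43 and 13.46 CPM in pericytes, at 22.96 and 5.05 CPM in sinusoids and 0 in ZKS cells, and GP1BB was at 3.71 and 4.44, 15.26 and 2.77, and 0 CPM. Their part in the difference was not tested. The summed thrombocyte list of 8 genes, which includes itga2b, ran the other way (960 to 1031 CPM in ZKS cells, 167 to 179 CPM in pericytes, 582 to 711 CPM in sinusoids), since THBS1 alone was at 1028.85 and 955.6 CPM in ZKS cells.

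The alphaV chain pairs with beta3, beta5, beta6 and beta8 in receptors of vitronectin and of latent TGF-beta. ITGAV (ENSDARG00000006314) was at 27.75 and 31.07 CPM in ZKS cells, at 38.25 and 40.95 CPM in pericytes and at 25.2 and 9.54 CPM in sinusoids. All 3 groups held it, with pericytes highest. It was called only between pericytes and sinusoids, at 1.36 ± 0.39 on the log2 scale (limma adjusted p = 0.0452; 5 of 14 alternatives, at 0.101 and 0.144 without pericyte replicates 1 and 2 and 0.115 without sinusoid replicate 2). Its partner chains differed in their pattern. The ITGB3 copy ENSDARG00000045070 was at 12.96 and 9.31 CPM in ZKS cells, at 4.14 and 8.3 CPM in pericytes and at 0.52 and 1.17 CPM in sinusoids. It was called against sinusoids in ZKS cells, by 2.46 ± 0.58 (limma adjusted p = 0.0191; 0.155 and 0.11 without ZKS replicates 1 and 2, 0.0516 without sinusoid replicate 1), and in pericytes, by 1.99 ± 0.58 (limma adjusted p = 0.047; 4 of 13 alternatives, lost among others with CPM as deposited, a pseudocount of 5 and edgeR, at 0.0896, and at 0.146 without pericyte replicate 2, 0.107 and 0.0596 without sinusoid replicates 1 and 2).

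ITGB5 was at 32.18 and 37.45 CPM in ZKS cells, at 26.55 and 16.87 CPM in sinusoids and at 5.71 and 14.46 CPM in pericytes. Its groups did not overlap, yet no difference passed the threshold (ZKS cells against pericytes 1.47 ± 0.48, limma adjusted p = 0.0521). ITGB6, at 1.43 and 13.17 CPM in pericytes and 0 to 1.2 CPM in the other niche libraries, and ITGB8, at 0 to 2.14 CPM, were not called. The second ITGB3 copy was at most 0.29 CPM. ITGA8 (ENSDARG00000078717), a receptor chain for nephronectin in the mammalian kidney, was at 2.43 and 4.87 CPM in pericytes, at 2.24 and 2.22 CPM in sinusoids and at 0.22 and 0.4 CPM in ZKS cells. ZKS cells lay below pericytes by -1.94 ± 0.49 (limma adjusted p = 0.0225; 0.185 and 0.154 without ZKS replicates 1 and 2, 0.0678 without pericyte replicate 2).

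The alpha4 and alpha9 chains bind VCAM1 and fibronectin variants, and alpha4 with beta1 is the known homing receptor of blood progenitors in mammals. ITGA9 (ENSDARG00000032435) was at 23.26 and 22.34 CPM in pericytes, at 4.43 and 8.3 CPM in ZKS cells and at 0.15 and 0 CPM in sinusoids. The groups were separate in that order. Pericytes exceeded sinusoids by 4.62 ± 0.53 on the log2 scale (limma adjusted p = 0.00196; all 14 alternatives). ZKS cells lay above sinusoids by 2.55 ± 0.53 (limma adjusted p = 0.0119; 0.062 and 0.147 without ZKS replicates 1 and 2) and below pericytes by -2.07 ± 0.53 (limma adjusted p = 0.0231). The last call ended without any one of the 4 libraries (adjusted p = 0.0586 to 0.217) and with edgeR (adjusted p = 0.0872).

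ITGA4 (ENSDARG00000103056) was at 9.42 and 2.15 CPM in pericytes, at 9.65 and 3.94 CPM in sinusoids and at 0.86 and 0.1 CPM in ZKS cells. ZKS values were the lowest of the set. The difference was called against sinusoids (-2.46 ± 0.72, limma adjusted p = 0.0396) in 4 of 13 alternatives and ended without any one of the 4 libraries compared (adjusted p = 0.0696 to 0.249). Against pericytes it was -2.18 ± 0.72 (limma adjusted p = 0.052). The leukocyte markers given above were likewise lowest in ZKS cells, and their part in this difference was not tested.

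Leukocyte integrins pair the beta2 chain (itgb2) with alphaL, alphaM, alphaX or alphaD. The gene itgb2 (ENSDARG00000016939) was at 81.63 and 75.2 CPM in ZKS cells, at 110.9 and 63.57 CPM in pericytes and at 163.85 and 58.8 CPM in sinusoids. The 3 groups overlapped. In reads, these were 756 and 743 in the ZKS libraries, 777 and 444 in the pericyte libraries, and 2191 and 955 in the sinusoid libraries. ZKS cells differed from pericytes by -0.46 ± 0.42 (limma adjusted p = 0.423) and from sinusoids by -0.62 ± 0.42 (limma adjusted p = 0.311), which does not show that the levels are alike.

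Most leukocyte markers were at or near 0 in ZKS cells, unlike itgb2. The pan-leukocyte gene ptprc was at 0.76 and 0.91 CPM there, the actin-bundling gene LCP1 at 0 in both libraries and the antigen-presentation gene cd74a at 0.22 and 0.4 CPM. In the pericyte libraries the same genes were at 58.66 and 66.86, 634.14 and 286.21, and 2432 and 3251 CPM. Of the 10 leukocyte markers 5 or 6 were above 0 in a ZKS library, mostly rac2, at 16.41 and 25.5 CPM. The neutrophil list of 5 genes summed to 0.61 to 1.73 CPM there. The macrophage list of 11 genes summed to 55.05 to 64.36 CPM in ZKS cells, mostly grna, at 51.4 and 43.72 CPM. It summed to 370 to 457 CPM in the pericyte libraries and 672 to 1314 CPM in the sinusoid libraries. The lymphocyte list of 7 genes ran differently, at 109 to 150 CPM in the ZKS libraries, 78 to 131 CPM in the pericyte libraries and 249 to 280 CPM in the sinusoid libraries. In ZKS cells it was mostly the cytokine receptor gene il2rb, at 149.12 and 107.18 CPM, against 8.56 and 9.88 CPM in the pericyte libraries. What these marker values mean for itgb2 was not tested. The leukocyte alpha chains among the members were at 0 or nearly so in ZKS cells. There itgam.1, itgae.1 and itgae.2 were at 0 in both libraries and itgam.2 at 0.43 and 0 CPM. No member was listed as alphaL, alphaX or alphaD, so these beta2 partners were not examined.

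**Figure D3:**
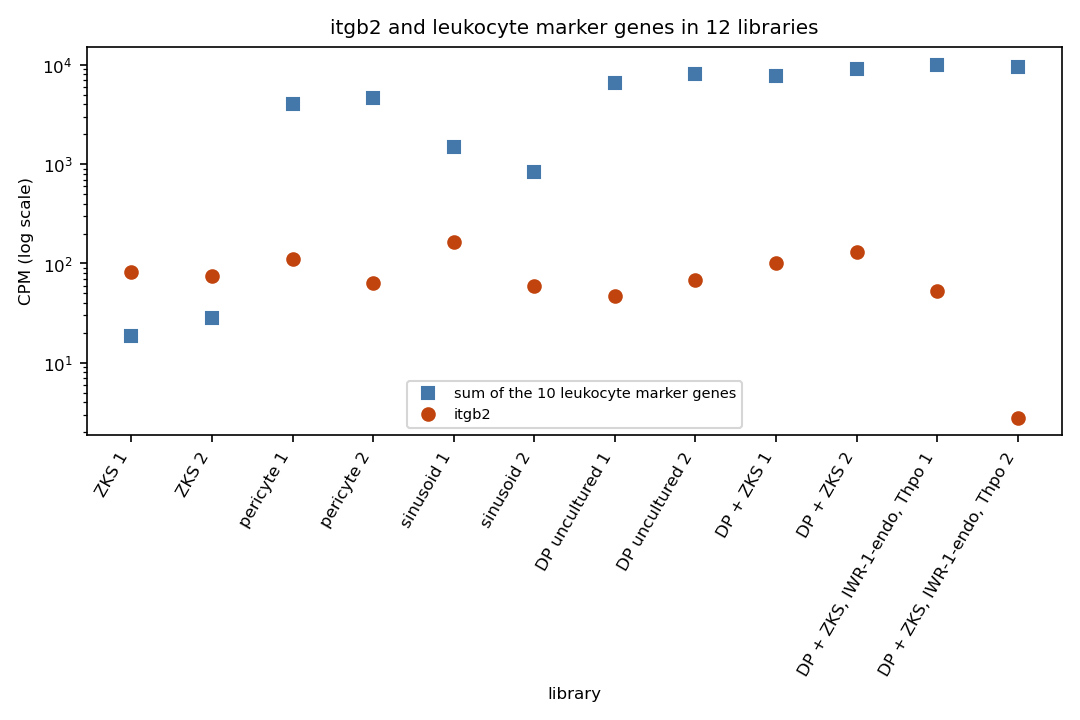
Circles give itgb2 and squares the sum of 10 leukocyte marker genes in CPM (log scale) in each of the 12 libraries; the niche and DP values were made separately, so levels across the sets are shown side by side only. In the ZKS libraries itgb2 (81.63 and 75.2 CPM) lay above the summed markers (18.5 and 28.3 CPM), and in the other 10 libraries it lay below them.

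Elsewhere in the niche set the leukocyte alpha chains among the members were low. The gene itgam.1 (ENSDARG00000002956), a copy of the alphaM chain of the myeloid complement receptor, was at 9.99 and 2.86 CPM in pericytes and at 4.19 and 5.17 CPM in sinusoids. Those groups overlapped and both lay above the ZKS libraries at 0. It was at least 19.8-fold lower in ZKS cells than in pericytes, or 8.83-fold from pericyte replicate 2 alone (log2 change -2.82 ± 0.64, limma adjusted p = 0.0153; 0.108 and 0.11 without ZKS replicates 1 and 2) and at least 14.4-fold lower than in sinusoids (-2.57 ± 0.64, limma adjusted p = 0.023; 0.152 and 0.153 without ZKS replicates 1 and 2, 0.0828 without sinusoid replicate 2). The gene itgae.1 (ENSDARG00000098012), a copy of the alphaE chain that binds E-cadherin in mammals, was at 5.28 and 4.15 CPM in pericytes and at 1.27 and 1.48 CPM in sinusoids. Pericyte values were the highest, and ZKS cells were at least 14.6-fold lower (-2.63 ± 0.43, limma adjusted p = 0.00474; 0.0718 and 0.0731 without ZKS replicates 1 and 2). For itgam.2 (ENSDARG00000096587) ZKS cells lay below pericytes, at 2.14 and 1.15 CPM, by -1.24 ± 0.38 (limma adjusted p = 0.0422; 3 of 11 alternatives, and 0.164 and 0.328 without ZKS replicates 1 and 2). The summed leukocyte, neutrophil and macrophage markers were also lowest in ZKS cells, while the lymphocyte sum of ZKS cells overlapped that of pericytes. The part of these markers was not tested.

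RNA of the shared beta1 chain was present in every niche library, with shares of the gene copies that differed between groups. Copy ENSDARG00000104484 was at 152.9 and 109.51 CPM in ZKS cells, at 19.84 and 15.03 CPM in pericytes and at 22.36 and 11.39 CPM in sinusoids. Both ZKS values lay above all others, by 2.48 ± 0.34 on the log2 scale against pericytes (limma adjusted p = 0.00255) and 2.65 ± 0.34 against sinusoids (limma adjusted p = 0.002). These 2 calls held in 13 of 14 alternatives and ended with all 12 libraries in one fit (adjusted p = 0.299 and 0.283).

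The other 3 copies ran the opposite way, with calls against pericytes only. Against sinusoids their log2 changes were -1.32 to -1.14, and none was called (limma adjusted p = 0.0571 to 0.195). Copy ENSDARG00000071863 was at 20.73 and 16.9 CPM in ZKS cells, at 49.67 and 53.69 CPM in pericytes and at 30.14 and 44.27 CPM in sinusoids, with ZKS cells below pericytes by -1.77 ± 0.40 (limma adjusted p = 0.0148; lost without any one of the 4 libraries, at 0.0504 to 0.105). Copy ENSDARG00000053232 was at 0 and 0.4 CPM in ZKS cells against 5.57 and 6.01 CPM in pericytes (-2.67 ± 0.47, limma adjusted p = 0.00617; 0.0953 and 0.0626 without ZKS replicates 1 and 2, 0.0504 with edgeR). Copy ENSDARG00000022689 was at 0.22 and 0.91 CPM against 4.28 and 14.32 CPM (-2.75 ± 0.69, limma adjusted p = 0.0216; 0.155 and 0.0977 without ZKS replicates 1 and 2, 0.0688 without pericyte replicate 2). Each of these 3 copies was lower in both ZKS libraries than in both pericyte libraries.

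Summed over the 4 copies, ITGB1 was at 173.85 and 127.72 CPM in ZKS cells, at 79.36 and 89.05 CPM in pericytes and at 55.79 and 60.34 CPM in sinusoids. Copy ENSDARG00000104484 held 87.9% and 85.7% of that sum in ZKS cells, 25% and 16.9% in pericytes and 40.1% and 18.9% in sinusoids. Copy ENSDARG00000071863 held 11.9% and 13.2%, 62.6% and 60.3%, and 54% and 73.4% of it. These shares are of CPM without correction for transcript length, so they compare groups and not copies. Reads of similar copies may have been split or dropped by the authors' counting, and the values of single copies are uncertain to that extent.

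**Figure D4:**
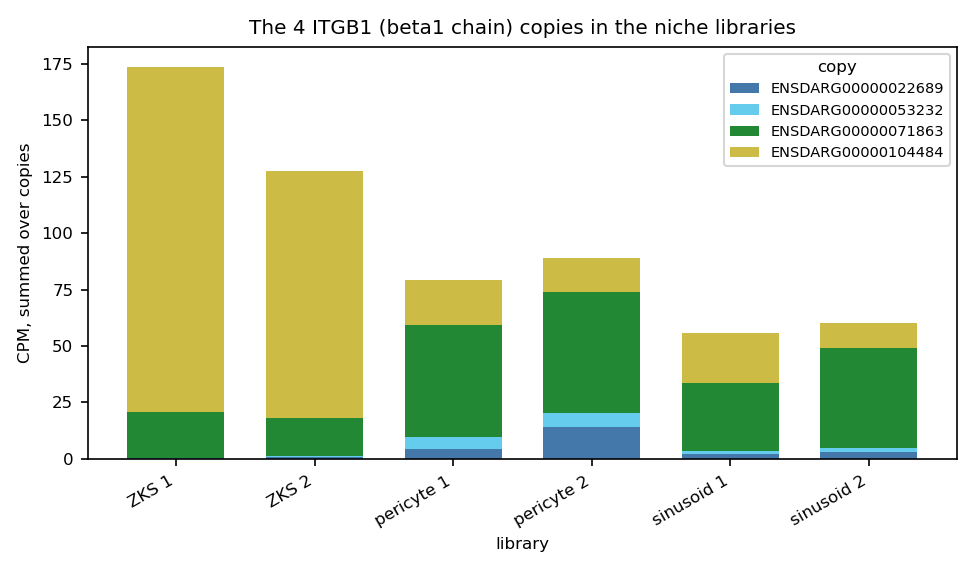
Stacked bars give the CPM of the 4 ITGB1 copies in each niche library, from 0. The bars of the ZKS libraries reach 173.85 and 127.72 CPM, and the share of copy ENSDARG00000104484 in them (87.9% and 85.7%) exceeds its share in the pericyte and sinusoid libraries (16.9% to 40.1%).

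Integrins signal through adaptors and activators such as talin, kindlin and tensin. Of 57 genes in a list of these, 50 were tested. In ZKS cells against pericytes 6 were higher and 13 lower (median log2 change -0.43), against sinusoids 9 were higher and 15 lower (median -0.19), and in pericytes against sinusoids 13 were higher and 4 lower (median 0.37). The shares called were 38%, 48% and 34%, beside 37.2%, 31.6% and 25.4% of all genes, so the first was near the background. The tetraspanin gene cd9b, whose product associates with integrins, was at a mean of 603 CPM in ZKS cells, 9.37 CPM in pericytes and 5.15 CPM in sinusoids. Its log2 change was 5.68 ± 0.90 against pericytes (limma adjusted p = 0.00416) and 7.05 ± 0.90 against sinusoids (limma adjusted p = 0.00188).

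Tensins, which link integrin tails to actin, differed by gene. The gene tns1a was at a mean of 71.2 CPM in ZKS cells, 1.72 CPM in pericytes and 0 in sinusoids, with log2 changes of 4.44 ± 0.51 and 5.94 ± 0.51 (limma adjusted p = 0.00134 and 0.000428). The gene tns2b was at a mean of 0.11 CPM in ZKS cells, 186 CPM in pericytes and 0 in sinusoids, lower in ZKS cells than in pericytes by -7.57 ± 0.48 (limma adjusted p = 0.000177) and at least 829-fold higher in pericytes than in sinusoids. The 2 tensin genes were thus high in different groups. The FERMT3 copy ENSDARG00000030938, for kindlin-3, the integrin activator of blood cells, was at 0 in ZKS cells and at means of 35 CPM in pericytes and 59.1 CPM in sinusoids, at least 108-fold and 183-fold lower in ZKS cells, the latter 92-fold from the lower sinusoid replicate alone. Genes lpxn and parvg, adaptors known from leukocytes in mammals, were at 0 in ZKS cells. They were at least 70.8-fold and 67.2-fold lower there than in sinusoids, or 52.6-fold and 27.8-fold from the lower sinusoid replicate alone.

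Further adaptor genes with the largest changes were the tetraspanin CD151 and the actin regulators. How the calls of the adaptor and ligand genes held in the alternatives is not given here, and single libraries may decide them too. The CD151 copy ENSDARG00000068629 was higher in ZKS cells than in pericytes by 3.29 ± 0.79 (limma adjusted p = 0.019). The copy ENSDARG00000038288 was higher in pericytes than in sinusoids by 5.29 ± 0.47. ACTN1, the actin crosslinker alpha-actinin, was higher in ZKS cells than in sinusoids by 5.37 ± 0.38. The VASP copy ENSDARG00000099690, an actin elongation factor, was at 0 in ZKS cells and at least 73.3-fold lower than in pericytes. Between pericytes and sinusoids the filamin gene flnb was higher in pericytes by 4.0 ± 0.45. Genes cd9a (-3.50 ± 0.35) and RASGRP2 (at least 11.5-fold lower), an activator of Rap1 in platelets, were lower in pericytes. The gene vaspb was lower there too (-1.40 ± 0.41), just under the threshold (limma adjusted p = 0.0489).

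Of 46 genes for matrix and surface ligands, 35 were tested. In ZKS cells against pericytes 1 was higher and 17 lower (median log2 change -1.50). Against sinusoids 12 were higher and 13 lower (median 0.36), and in pericytes against sinusoids 20 were higher and 4 lower (median 2.33). The shares called were 51.4%, 71.4% and 68.6%, beside the same 37.2%, 31.6% and 25.4% of all genes. In the first comparison 15.2% of all genes were higher and 22% lower. The fibronectin copy FN1 (ENSDARG00000006526), a ligand of the alpha5 receptor, averaged 1.95 CPM in ZKS cells against 3348 CPM in pericytes (-10.43 ± 0.28, limma adjusted p = 2.42e-05). The basement membrane genes NID2 (ENSDARG00000075707; -7.99 ± 0.52) and LAMB1 (ENSDARG00000101209; -7.65 ± 0.33) were lower in ZKS cells than in pericytes as well. The gene mfge8a, for an RGD protein that bridges cells to alphaV receptors in mammals, was the 1 ligand gene higher in ZKS cells (2.06 ± 0.32, limma adjusted p = 0.00417).

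Against sinusoids, ZKS cells had more RNA of TGFB3, a growth factor activated by alphaV receptors (6.74 ± 0.49), of the basement membrane gene NID1 (ENSDARG00000068710; 6.34 ± 0.28) and of spp1, osteopontin (5.13 ± 0.66). They had less of vwf, the von Willebrand factor of endothelium and platelets (-8.98 ± 0.48), of LAMB1 (-5.53 ± 0.33) and of the fibrinogen chain FGB (-4.41 ± 0.80). Pericytes exceeded sinusoids in NID1 (7.84 ± 0.28), the FN1 copy ENSDARG00000019815 (6.67 ± 0.31) and NID2 (6.63 ± 0.52). They were lower in vwf (-7.90 ± 0.48), FGB (-5.05 ± 0.80) and vcam1b, a ligand gene of alpha4 and alpha9 (-3.13 ± 0.34; means of 21.9 CPM in pericytes and 211 CPM in sinusoids).

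In the DP libraries few integrin genes were detected, and replicates often disagreed. At least 1 CPM in at least 2 DP libraries was reached by 8 of the 34 members. Limma called 0 of the 8 in each of the 3 comparisons, where 0% of all 8795 genes were called in either direction, 0% higher and 0% lower. At an unadjusted p under 0.05, 1 of the 8 members passed in co-cultured against uncultured cells, 1 in treated against co-cultured cells and 2 in treated against uncultured cells, beside 996, 844 and 1183 of all genes. With all 12 libraries in one fit 1, 1 and 2 of 27 members were called, beside 3.61%, 2.94% and 4.7% of all genes. A value listed at 0 may be a gene not captured, since 7 to 13 housekeeping genes were also listed at 0.

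The gene itga2b was at 36.9 and 63.5 CPM in the uncultured DP libraries and listed at 0 in all 4 co-cultured libraries. The groups did not overlap, but the limma adjusted p was 0.168 for co-cultured and 0.144 for treated against uncultured cells. Of the thrombocyte genes, gp9 was at 5.8 and 0 CPM in uncultured cells and listed at 0 in the co-cultured libraries. GP1BB was at 18.7 and 59.9 CPM in uncultured, 0 and 48.7 CPM in co-cultured and 84.5 and 0 CPM in treated cells, and the thrombopoietin receptor gene mpl was above 0 in all 6, at 30.9 to 99.6 CPM. The summed thrombocyte list of 8 genes, which includes itga2b, ran the other way. It was at 1285 to 1622 CPM in uncultured cells and at 2070 to 2828 CPM in the 4 co-cultured libraries. FLI1 alone was at 1481 and 1108 CPM in uncultured cells and at 1944 to 2797 CPM in the co-cultured libraries. Whether these genes bear on the itga2b values was not tested.

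The leukocyte beta2 chain was 1 of the 3 members above 0 in all 6 DP libraries. The gene itgb2 was at 47.2 and 68.1 CPM in uncultured, 101.3 and 129.9 CPM in co-cultured and 53 and 2.8 CPM in treated cells. Both co-cultured values lay above the rest, and treated replicate 2 lay far below. Its log2 changes were 0.92 ± 1.52 in co-cultured against uncultured cells and -3.12 ± 1.52 in treated against co-cultured cells (limma adjusted p = 0.908 and 0.655). The copy itgae.2 was above 0 in all 6, at 0.3 to 6.7 CPM, with no separation of the groups. The 10 leukocyte markers summed to 6497 to 10027 CPM in the DP libraries.

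The beta1 copies of the DP libraries varied between replicates. Copy ENSDARG00000053232 was at 32.7 and 17.7 CPM in treated cells, 0 and 0.1 CPM in uncultured cells and listed at 0 in co-cultured cells. Treated values lay above all others, with log2 changes of 4.55 ± 0.95 against co-cultured (limma adjusted p = 0.293) and 4.47 ± 0.95 against uncultured cells (limma adjusted p = 0.144). Copy ENSDARG00000071863 was at 5.3 and 6 CPM in uncultured, 22.6 and 0.6 CPM in co-cultured and 0.1 and 9.1 CPM in treated cells, and these groups overlapped. Copy ENSDARG00000104484, higher in ZKS cells than in the other niche groups, was at 29.9 CPM in co-cultured replicate 1 and listed at 0 in the other 5 DP libraries.

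The alpha chain genes ITGA4 and ITGA8 were high in 1 DP library each. ITGA4 was at 56.4 and 0.1 CPM in uncultured, 0 and 8.4 CPM in co-cultured and 3.3 and 0 CPM in treated cells. ITGA8 was at 78.6 CPM in co-cultured replicate 2 and at most 1.1 CPM in the other DP libraries. For both genes 1 library stood far above its own replicate, so no group level can be read from them.

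**Figure D5:**
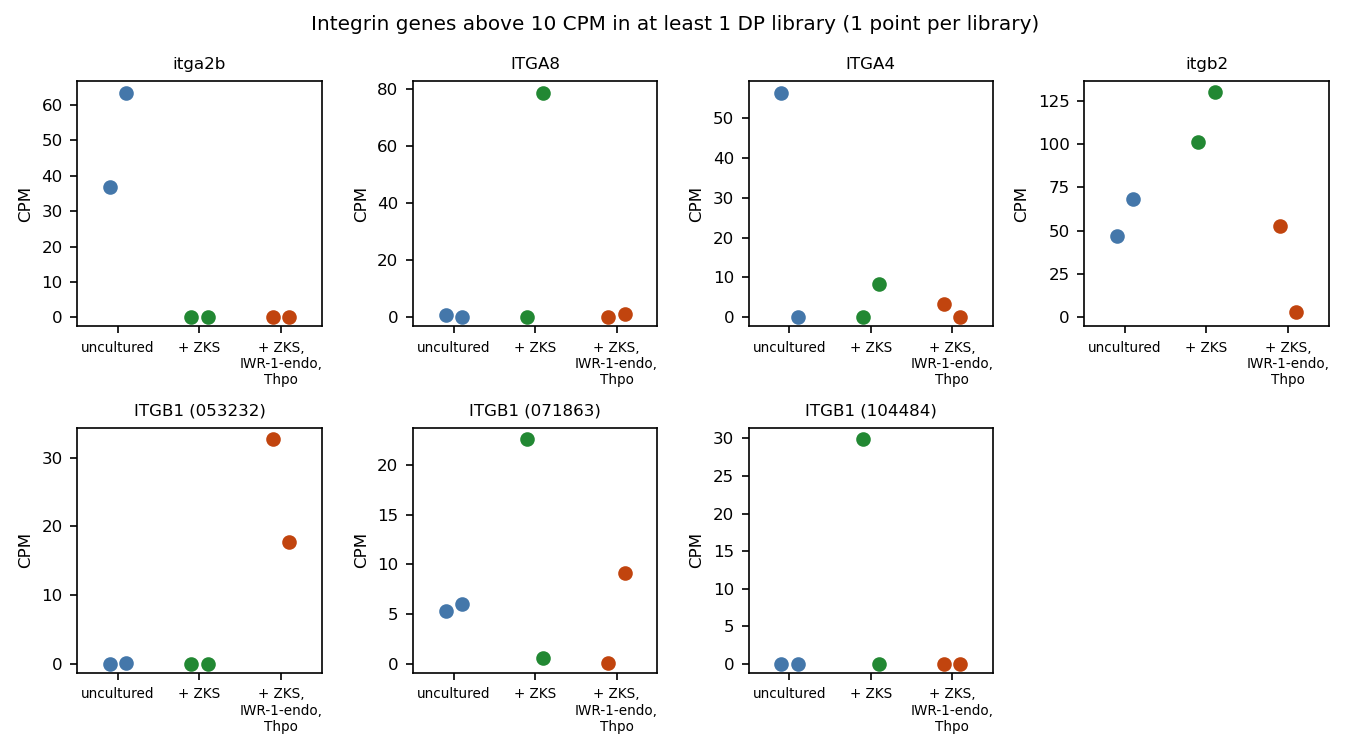
Each panel shows 1 of the 7 integrin genes above 10 CPM in at least 1 DP library, with 1 point per library in CPM from 0 for uncultured cells, cells co-cultured with ZKS cells, and cells co-cultured with IWR-1-endo and Thpo added. For itga2b both uncultured points lie above the other 4 at 0, whereas ITGA4 and ITGA8 each have 1 high point (56.4 and 78.6 CPM).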

How the data were processed

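The authors deposited 1 table per library of CPM, read counts divided by the library total, for 32047 identifiers; the gene name table gives 28978 of them a symbol. The submitters' processing notes name HISAT2 2.1.0, Subread 1.6.4 and build GRCz11, without settings or order. Deposited CPM of the niche libraries could be turned back into reads, whole within 0.1 read for 100% of values. The step of ZKS replicate 2 was close to its rounding; with a step of 0.1 CPM 39.8% of its values came out whole. Even numbers made up 54.3% to 61% of recovered counts above 0, so reads may not have been counted independently, and floors of 3 reads (0.185 to 0.43 CPM per library) cover counting error only. No molecular identifiers are described. DP values were given to 1 decimal and were not turned back into reads. Fold bounds divide the mean of the other group by the higher floor of the group at 0. The lower replicate of that other group alone gives a smaller bound.

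Values were scaled by TMM over all genes (edgeR 4.0.16), filtered (2 or more libraries of a set at 1 CPM or more; 15916 niche and 8795 DP genes) and tested on log2(CPM + 1) by limma 3.58.1 with a trended prior, in R 4.3.3, the 3 groups of a set in 1 fit, two-sided. The method was tested on simulated data. The simulation covered only ZKS cells against pericytes, gave all genes the same spread and changed only genes above a set level. The DP set was not simulated. With CPM as deposited the median log2 change of all genes moved, for ZKS cells, from -0.15 to 0.098 (pericytes) and from -0.12 to 0.03 (sinusoids), and, for treated DP cells, from -0.64 to -0.51 (uncultured). Alternatives were no TMM, pseudocounts of 0.5 and 5, no filter or 10 CPM, the 4 libraries alone, all 12 libraries, a replicate block, each replicate left out, and edgeR and DESeq2 1.42.0 on recovered reads of the niche set. Named are the called members whose groups do not overlap (at most 20 per comparison), DP members above 10 CPM, and the 3 largest called changes each way in 2 pathway lists. Members and lists were chosen with earlier results of these data known. The files of replicates were not identical.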

Additional observations from a re-analysis of the deposited data

How the results depend on the processing

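In the alternatives, the called members kept their side of the threshold in 138 values and lost it in 49 for ZKS cells against pericytes, in 108 and 29 against sinusoids, and in 56 and 40 for pericytes against sinusoids, always with the same sign. Against pericytes, where 14 members were called, the count was 8 with a filter of 10 CPM, which tests 12 members (7 of the 8 among the 14), 9 with edgeR (all 9 among them), and 4 to 12 with 1 replicate left out. Of the 12 called without pericyte replicate 1, 10 were among the 14, and of the 12 without replicate 2, 9 were. Against sinusoids the count of 10 became 5 to 8 with 1 replicate left out. Between pericytes and sinusoids the count of 7 became 2 with no filter, 3 with the 4 libraries alone, 1 with edgeR and 4 to 6 with 1 replicate left out. In the DP set the count of 0 became 1, 1 and 2 with all 12 libraries in one fit, and stayed at 0 with 1 replicate left out. Among all genes, the share called in ZKS cells against pericytes was 37.2%, and became 48.2% with a filter of 10 CPM and 25.4% with edgeR. Between pericytes and sinusoids 25.4% became 12.4% with no filter, 15.7% with the 4 libraries alone and 12.5% with edgeR. The cause of these changes was not tested. With 1 replicate left out, the lone library is assumed to vary like the other groups.

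Directions that turned were all of changes not called, and those of itgb2 and of ITGB1 in the DP set are given here. Other members not called turned as well. The ITGA11 copy ENSDARG00000036086 in ZKS cells against pericytes ranged from -1.14 to 2.01 over the alternatives, and ITGA4 in pericytes against sinusoids from -1.15 to 0.58. For itgb2 in pericytes against sinusoids, -0.16 became 0.22 without pericyte replicate 2 and 0.41 without sinusoid replicate 1, with a lowest value of -0.66 without sinusoid replicate 2. For the ITGB1 copy ENSDARG00000071863 the change of co-cultured against uncultured DP cells became 0.15 with a pseudocount of 5 and 1.70 without co-cultured replicate 2, and was lowest at -2.10 without co-cultured replicate 1. Treated against co-cultured became 0.99 without co-cultured replicate 1 and 0.65 without treated replicate 1, and was lowest at -2.80 without co-cultured replicate 2. Treated against uncultured became 0.45 without treated replicate 1 and was lowest at -2.68 without treated replicate 2.

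Deviations of same-numbered libraries correlated across genes at -0.0096 to 0.0637 in the comparisons. Since each group had only 2 libraries, these values cannot show whether same-numbered libraries shared an animal, a day or a batch. With the replicate number as a block, 13, 10 and 5 members were called in the niche comparisons and 0 in the DP comparisons. Of all genes 36.2%, 30.7% and 24% were called in the niche comparisons and 0% in the DP comparisons.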
